A study of Mus musculus with 12 samples.

Results

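The Nuclear factor I family consists of 4 paralogous genes, Nfia, Nfib, Nfic and Nfix, and all 4 were chosen by their gene symbol. They make up 4 of the 40690 genes and 34 of the 84548 transcripts in the deposited tables. The 12 libraries hold polyadenylated RNA from the brains of 12 C57BL/6J mouse embryos at embryonic day 14.5, each dissected whole. LC1 is a conserved non-coding element upstream of Pou3f2, a neuronal transcription factor gene. In the LC1 experiment, 3 female embryos with this element knocked out (7, 22 and 71) were compared with 3 female wild types (6, 26 and 73). RKI names a knock-in of the human variant rs77910749, which lies in this element, and 3 homozygous embryos were set against 3 wild types. The homozygotes are the males A1 and A18 and the female A10, and the wild types are the males A2 and A16 and the female A9. Per the labels' protocol, mutants and wild types share litter and sex, but no litter is named, and genotypes could not be checked in gene counts.

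Nuclear factor I proteins are site-specific DNA-binding proteins that bind a palindromic sequence as homodimers or heterodimers of any paralogs and can activate or repress transcription. In the embryonic brain, NFIA, NFIB and NFIX are known for driving radial glia towards differentiation and for switching on glial genes, and loss of any of them in mice disturbs the forebrain midline, the hippocampus or the cerebellum. NFIC is better known for its role in tooth root formation.

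Total counts per library ran from 18192984 to 26566769, and each member had between 1218 and 24920 reads in a library. As a check of the tissue, the neuronal tubulin gene Tubb3 lay between 2411 and 3164 CPM (counts relative to the library's scaled total), and Dcx, a microtubule protein of young neurons, between 1389 and 1696 CPM. Of the markers of midbrain and hindbrain, Hoxb2 and Hoxb3 were at 0 in all 12 libraries and En1 reached at most 2.22 CPM. Barhl1, Gata3 and Tal1 of the same list reached 11.9, 11.1 and 14.4 CPM. In tissue labelled as brain, the Hox markers of the hindbrain were thus at or near 0 and others of its list were detected at low levels. In bulk RNA, fewer cells of a type and less RNA per cell cannot be told apart.

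In GENCODE M21 on GRCm38, Nfia spans 346 kb on chromosome 4 at 97772734 to 98118874 on the plus strand. Nfib spans 416 kb on the same chromosome at 82290173 to 82705750 on the minus strand, and Pou3f2 lies on that chromosome too, 59.8 Mb from Nfib and 75.3 Mb from Nfia. Nfic spans 59.5 kb at 81396186 to 81455635 on chromosome 10, and Nfix spans 100 kb at 84699876 to 84800344 on chromosome 8, both on the minus strand. Other annotated genes overlap each locus. E130114P18Rik, on the opposite strand at the 5′ end of Nfia, had a mean of 451 reads against 6369 for Nfia. The antisense gene Gm11266 had 243 reads against 18242 for Nfib, and Lyl1, on the opposite strand within Nfix, had 93 reads against 13763 for Nfix. With the strand setting of the counting not given in the sources used here, reads from such overlaps cannot be told apart.

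The second coding exon of all 4 genes is 532 bases long and encodes most of the DNA-binding and dimerization domain. It is shown because all 4 members share it, and because a read counter has to tell the genes apart there. The first 150 bases are given 5′ to 3′ from the GENCODE M21 transcripts, with capitals at the bases that are identical in all 4 genes.
Nfia, chr4:97783082-97783231, plus strand: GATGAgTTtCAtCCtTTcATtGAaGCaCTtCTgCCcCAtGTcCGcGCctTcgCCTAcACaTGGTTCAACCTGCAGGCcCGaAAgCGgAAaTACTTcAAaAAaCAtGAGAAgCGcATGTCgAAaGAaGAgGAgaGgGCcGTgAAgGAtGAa
Nfib, chr4:82498620-82498769, minus strand: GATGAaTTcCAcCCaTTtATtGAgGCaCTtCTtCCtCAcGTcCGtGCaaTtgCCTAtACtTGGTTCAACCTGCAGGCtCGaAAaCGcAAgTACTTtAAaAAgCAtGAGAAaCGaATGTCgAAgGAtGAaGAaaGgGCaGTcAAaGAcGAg
Nfic, chr10:81420649-81420798, minus strand: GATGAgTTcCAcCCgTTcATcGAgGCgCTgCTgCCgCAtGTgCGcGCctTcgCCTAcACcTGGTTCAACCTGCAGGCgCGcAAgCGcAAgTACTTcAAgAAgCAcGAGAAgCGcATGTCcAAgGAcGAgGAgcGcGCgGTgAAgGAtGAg
Nfix, chr8:84772166-84772315, minus strand: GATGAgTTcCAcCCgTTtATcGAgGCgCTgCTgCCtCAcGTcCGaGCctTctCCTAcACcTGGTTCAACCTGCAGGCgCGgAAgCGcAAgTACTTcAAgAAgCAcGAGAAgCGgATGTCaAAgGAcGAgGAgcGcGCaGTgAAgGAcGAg
Over the whole exon, 66.0% of bases were identical in all 4 genes, and 71.3% over the bases printed. Between pairs the identity ran from 75.8% for Nfia and Nfic to 82.0% for Nfic and Nfix. A run shared by all 4 genes within the printed stretch is TGGTTCAACCTGCAGGC.

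The transcript models differ at the first coding exon, in alternative pieces further on and in their number of exons and length. Nfib-202 has 9 exons, 1260 coding and 8429 spliced bases, against 12 exons, 1680 coding and 3267 spliced bases in Nfib-003, whose coding start differs by only 3 bases. Nfia-002 has 7 exons against 11 in Nfia-001. The first coding bases of 6 models are given next, with the first coding exon in capitals and the start of the second in lower case.
Nfia-001, chr4:97777968-97777994, plus strand: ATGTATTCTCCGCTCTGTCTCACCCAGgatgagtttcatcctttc
Nfib-003, chr4:82504731-82504757, minus strand: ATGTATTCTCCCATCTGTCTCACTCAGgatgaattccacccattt
Nfic-001, chr10:81427076-81427105, minus strand: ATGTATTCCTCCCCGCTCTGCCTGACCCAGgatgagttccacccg
Nfic-004, chr10:81430786-81430788, minus strand: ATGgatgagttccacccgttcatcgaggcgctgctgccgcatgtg
Nfix-001, chr8:84773354-84773356, minus strand: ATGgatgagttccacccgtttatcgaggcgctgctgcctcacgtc
Nfix-003, chr8:84799998-84800024, minus strand: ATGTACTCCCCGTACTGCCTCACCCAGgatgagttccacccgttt
Nfia-001, Nfib-003, Nfic-001 and Nfix-003 open with a first coding exon of 27 or 30 bases. In Nfic-004 and Nfix-001 the first coding exon holds only the start codon. Alternative pieces that separate the models named below are given in capitals, with the 12 adjoining bases of the spliced transcript in lower case on each side that has any.
Nfia exon absent from Nfia-004, chr4:97956374-97956439, plus strand: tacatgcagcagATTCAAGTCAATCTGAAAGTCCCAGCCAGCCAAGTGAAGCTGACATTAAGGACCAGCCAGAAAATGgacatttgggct
Nfia exon absent from Nfia-201, chr4:98041551-98041679, plus strand: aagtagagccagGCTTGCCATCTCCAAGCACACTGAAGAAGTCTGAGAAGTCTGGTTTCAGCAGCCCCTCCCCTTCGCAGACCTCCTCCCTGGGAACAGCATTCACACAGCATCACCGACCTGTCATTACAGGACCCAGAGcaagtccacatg
Nfia first exon of Nfia-007, chr4:97880119-97880169, plus strand: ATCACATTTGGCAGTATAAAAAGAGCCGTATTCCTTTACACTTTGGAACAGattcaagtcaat
Nfib bases in Nfib-002 and not Nfib-003, chr4:82323545-82323571, minus strand: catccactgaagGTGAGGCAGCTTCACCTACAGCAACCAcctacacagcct
Nfic exon absent from Nfic-001, chr10:81403381-81403428, minus strand: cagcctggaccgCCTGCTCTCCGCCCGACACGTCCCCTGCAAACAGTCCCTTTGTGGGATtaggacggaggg
Nfia-004 and Nfia-002 lack the 66-base exon that Nfia-001 and 5 other models hold. Nfia-201 lacks a 129-base exon that 6 models hold. Nfia-007 is an incomplete model with neither its start nor its end known, and its first exon of 51 bases is in no other model. Nfib-002 and Nfib-003 differ by 27 bases, and Nfic-001 lacks a 48-base exon that 3 models hold. All 34 deposited member transcripts were found in GENCODE M21 by identifier.

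All 4 genes were expressed in every embryo, and in RPKM (reads relative to gene length and library total) of the deposited gene table they kept 1 order in all 12 libraries. The plot of RPKM by group shows every embryo. Nfix was highest at 84.7 ± 8.42 RPKM (SD, n = 12), followed by Nfib at 55.3 ± 4.04, Nfia at 26.6 ± 2.37 and Nfic at 10.8 ± 0.570. By mean RPKM these levels ranked 403 for Nfix, 814 for Nfib, 2201 for Nfia and 5502 for Nfic among the 40690 genes. Nfix exceeded Nfib 1.53-fold on average (range 1.36 to 1.65), Nfib exceeded Nfia 2.08-fold (1.83 to 2.27) and Nfia exceeded Nfic 2.46-fold (2.09 to 2.90). Each step held in 12 of 12 libraries. The exact sign-flip permutation test of these steps can only restate that count (p = 0.000488 for each, its smallest value).

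**Figure D1:**
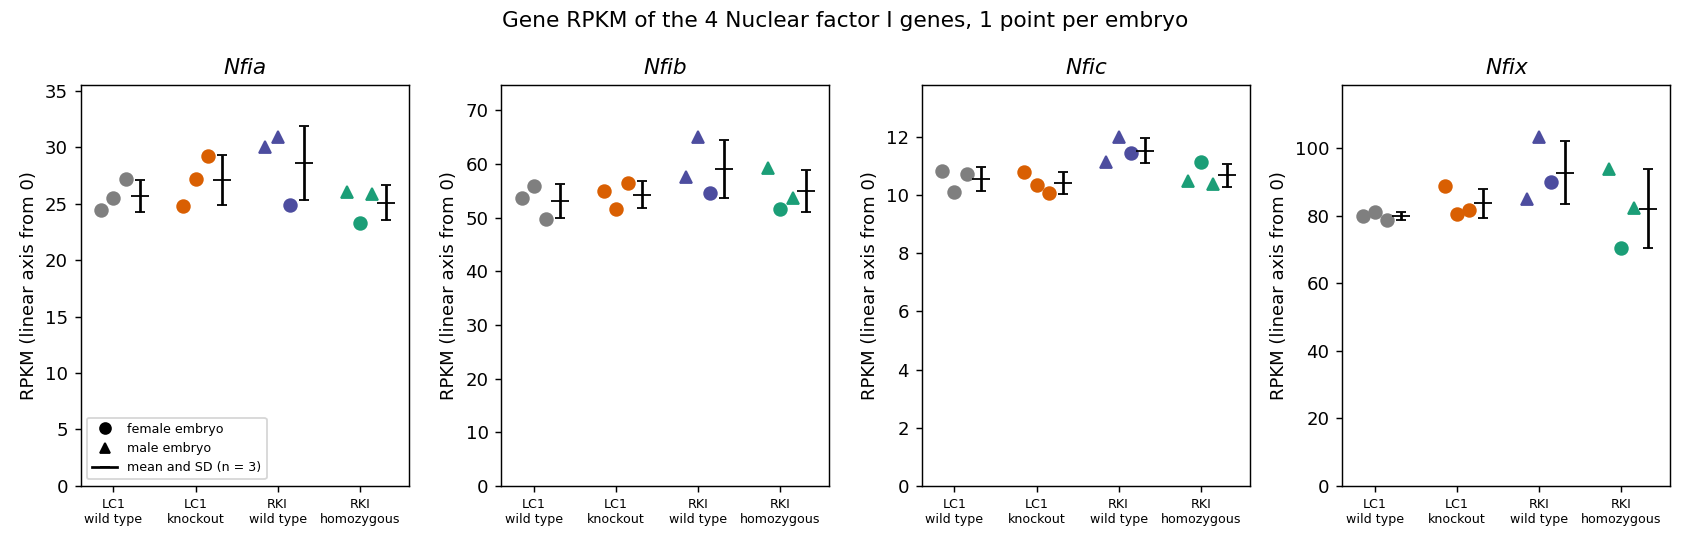
RPKM from the deposited gene table (linear axes from 0, a scale of its own for each gene) in the 3 embryos of each group, with circles for females and triangles for males; black marks give the mean and SD of each group. Groups overlap in each panel except Nfic in RKI, where wild type A16 and homozygote A10 are nearly level at 11.2 and 11.1 RPKM, and wild type A2 is the highest point for all 4 genes.

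The place of Nfix above Nfib rested on the length by which reads were divided. The gene table divides Nfib by 15.0 kb and Nfix by 7.36 kb, computed from its counts, which are close to the merged exons of these genes in GENCODE M21 (15.0 and 7.35 kb). When the deposited RPKM of all transcript models of a gene were summed, Nfib was highest at 97.8 ± 8.74 RPKM and exceeded Nfix, at 60.6 ± 6.40, in 12 of 12 libraries. The same sum gave Nfia 60.4 ± 4.98 RPKM, above Nfix in 6 of 12 libraries. With the sum over protein-coding models of the GENCODE basic set alone, a choice made after seeing the data, Nfib stood at 67.3 ± 4.24, Nfix at 57.9 ± 5.73, Nfia at 9.52 ± 0.861 and Nfic at 6.35 ± 0.630. Nfix exceeded Nfib in 1 of 12 libraries there. Nfic was the lowest member in all 3 measures, and Nfib exceeded Nfia in 12 of 12 libraries in each. The members' estimated counts summed over transcripts came to between 54.3% and 65.5% of the counts in the gene table, depending on gene and library.

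**Figure D2:**
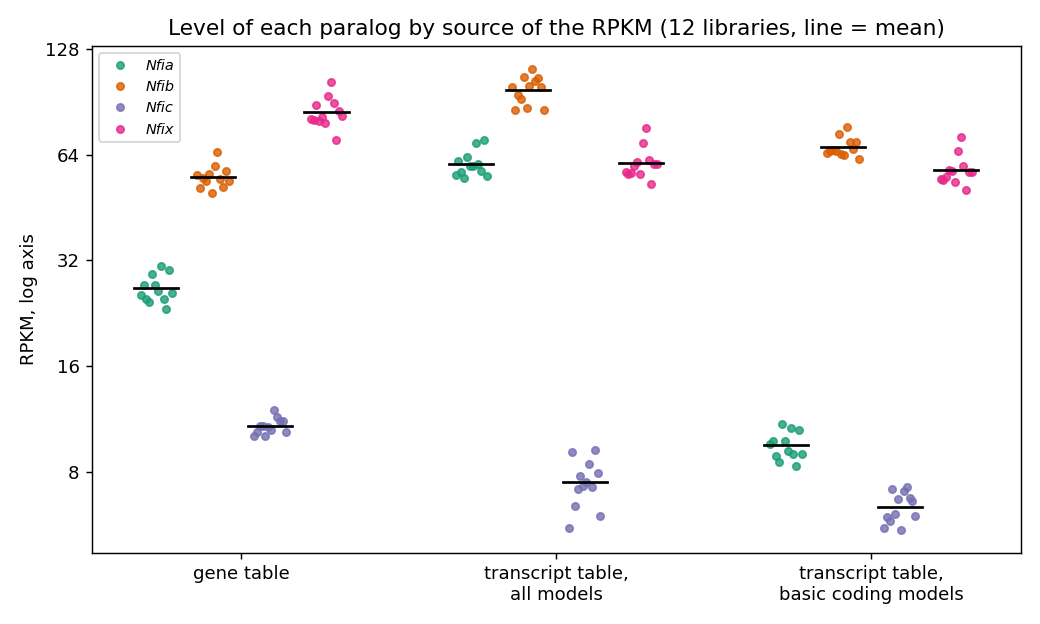
RPKM of the 4 genes (log axis) from the gene table, from the sum over all transcript models and from the sum over basic protein-coding models, with 1 point per library and a line at the mean of the 12 libraries. Nfix is highest in the gene table and Nfib in both transcript sums, and Nfia moves from 60.4 to 9.52 RPKM between the transcript sums.

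Few transcript models carried most of each gene, and which ones they were differed between RPKM and estimated counts. Of the 34 member transcripts, 31 were above 0 in at least 1 library and 28 passed the low-count filter. Nfix-005, Nfix-007 and Nfic-008 were listed at 0 throughout, and Nfia-006, Nfib-011 and Nfix-008 were too low to test.

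For Nfix, 1 model dominated on both scales. Nfix-001, whose first coding exon is the lone start codon shown above, held 74.4% ± 1.75 (SD, n = 12) of the transcript RPKM of Nfix and 91.2% ± 0.799 of its estimated counts, with a range of 90.0% to 92.5% across libraries. Nfix-003, with the longer coding start, held 2.54% of the estimated counts. For Nfic, Nfic-001 held 49.97% ± 7.87 of RPKM and 77.4% ± 3.94 of estimated counts. Nfic-004, which like Nfix-001 starts with the lone codon, held 23.3% of RPKM and 9.53% of estimated counts, and Nfic-002 held 10.8% and 9.14%.

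Nfib was split over several models. Nfib-202 held 23.0% ± 2.71 of RPKM and 50.01% ± 5.40 of estimated counts. Nfib-003 held 21.2% and 17.8%, and Nfib-002, which adds the 27 bases shown, 17.0% and 14.5%. The short non-coding model Nfib-009, with 379 spliced bases, held 26.2% of RPKM but 2.46% of estimated counts.

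For Nfia the scales disagreed most. The incomplete model Nfia-007, 821 bases long, held 76.3% ± 2.50 of RPKM and 28.3% ± 1.06 of estimated counts. The full-length model Nfia-001, 9526 bases long, held 9.96% ± 2.32 of RPKM and 43.8% ± 10.2 of estimated counts, with a range of 25.9% to 59.7%. Models of the basic set held 15.8% of the transcript RPKM of Nfia, 68.8% of that of Nfib, 85.2% of that of Nfic and 95.4% of that of Nfix. In estimated counts these shares were 68.5%, 94.98%, 98.0% and 99.7%. The estimates come without an error, from a tool not given in the sources used here.

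**Figure D3:**
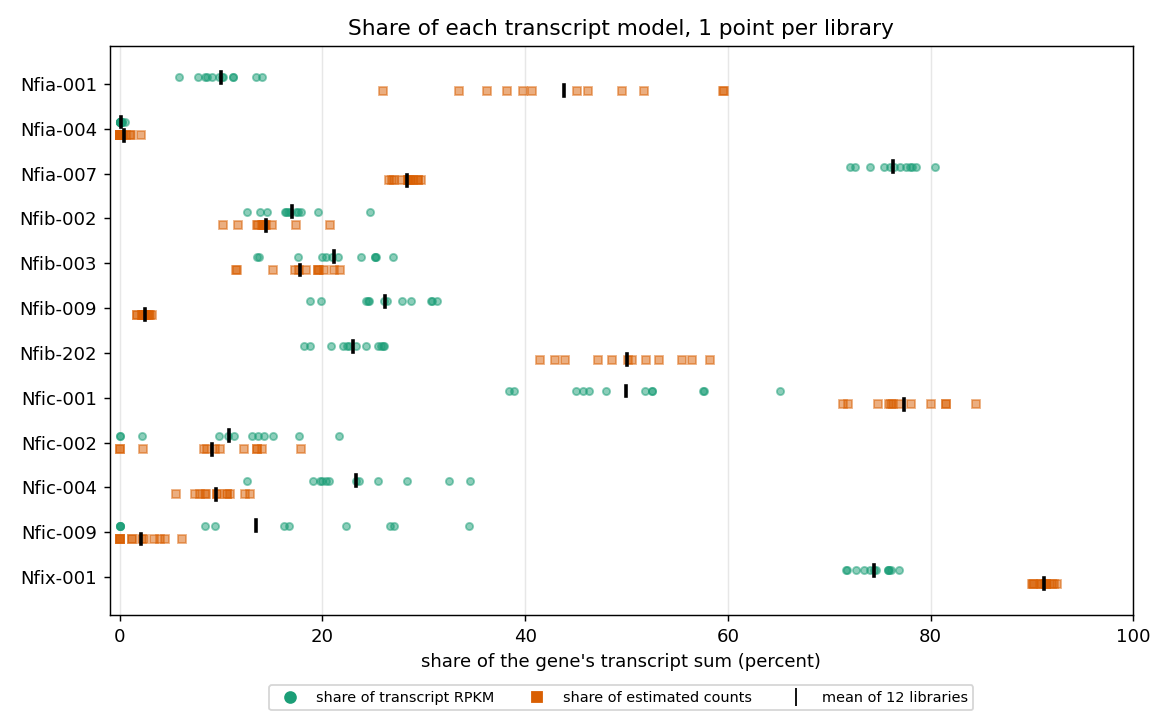
Share of each named transcript model in the transcript sum of its gene (percent, linear axis), with circles for RPKM and squares for estimated counts, 1 point per library, and black bars at the mean of 12 libraries. Nfix-001 holds the largest share on both scales for its gene, whereas Nfia-007 holds 76.3% of RPKM and 28.3% of estimated counts.

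In embryos without LC1, the 4 genes lay within a few percent of wild type. Nfia was at 25.5, 24.4 and 27.2 RPKM in wild types 6, 26 and 73 and at 27.2, 24.8 and 29.2 in knockouts 7, 22 and 71. Knockout 71 was the highest of the 6, and knockout 22 lay among the wild types, so the groups overlapped. The log2 fold change of the counts was 0.08 (SE 0.066, 95% interval -0.06 to 0.21), a fold of 1.05 (0.958 to 1.16).

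Nfib was at 55.9, 53.7 and 49.8 RPKM in wild types and 51.6, 54.9 and 56.4 in knockouts, in the same order of embryos. The knockouts spanned nearly the same range as the wild types, and the log2 fold change was 0.03 (SE 0.069, interval -0.11 to 0.18). Its sign changed to -0.02 without wild type 73, the lowest library for Nfib.

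Nfic was at 10.1, 10.8 and 10.7 RPKM in wild types and 10.4, 10.8 and 10.1 in knockouts. Neither group stood above the other, and the log2 fold change was -0.02 (SE 0.058, interval -0.14 to 0.11), turning to 0.00 without wild type 26 and 0.01 without knockout 71. Nfix was at 81.2, 80.1 and 78.8 RPKM in wild types and 80.5, 88.7 and 81.9 in knockouts. Knockout 22 was highest and knockout 7 fell among the wild types, with a log2 fold change of 0.07 (SE 0.081, interval -0.10 to 0.24).

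By edgeR's quasi-likelihood test with Benjamini-Hochberg adjustment over 16002 genes, 0 of 4 members passed in LC1 knockouts, with an adjusted p of 1 for each, where 0% of all genes passed. At an unadjusted p under 0.05 the count was 0 of 4, against 2.09% of all genes (334 by edgeR, 183 by DESeq2 and 330 by limma-voom). The values were higher in knockouts for 3 of 4 members, against 48.6% of all genes. The groups were apart for 0 of 4 members, against 7.16% of all genes. Without wild type 73 the count of all genes at an unadjusted p under 0.05 was 719, and without wild type 6 it was 217. The 95% intervals of the folds lay between 0.909 and 1.18 for all 4 members.

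Several marker lists leaned 1 way beside these values. Of the genes fixed as markers of microglia and macrophages 10 of 10 had lower values in knockouts (median log2 fold change -0.31). Summed over the list, levels were 147.9 to 188.3 CPM in wild types and 138.4 to 147.8 in knockouts. These ranges only just missed each other, at 147.93 CPM in wild type 73 and 147.76 in knockout 22. Lower values were seen for 12 of 12 genes of meninges and mesenchyme too (-0.19). Their sums overlapped, at 1213 to 1445 CPM in wild types and 1033 to 1330 in knockouts. Values were also lower for 6 of 7 tested genes of midbrain and hindbrain (-0.22), 8 of 10 of endothelium and pericytes (-0.04) and 7 of 9 of choroid plexus (-0.11), whose sums overlapped. Higher values were seen for 8 of 8 genes of intermediate progenitors (0.15), with 375 to 468 and 447 to 506 CPM, and for 10 of 11 of pallial neurons (0.09), with 2141 to 2407 and 2400 to 2523 CPM. None of these genes passed the adjusted threshold by edgeR, and their part in the members' values was not tested. How often summed levels of other genes are apart between 3 and 3 embryos was not computed.

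In embryos homozygous for the knock-in, all 4 fitted values were below wild type, the largest of them about -0.18 on the log2 scale, and none passed the test over all genes. Nfia was at 30.9, 24.9 and 30.1 RPKM in wild types A2, A9 and A16. The homozygotes A1, A10 and A18 had 26.1, 23.3 and 25.9 RPKM. The 2 male wild types were the highest of all 12 libraries for Nfia, and the female wild type lay among the homozygotes. The log2 fold change was -0.18 (SE 0.065, interval -0.31 to -0.04), a fold of 0.885 (0.805 to 0.974), with an unadjusted p of 0.0153 and an adjusted p of 1 by edgeR. Without A2 it was -0.15, with an unadjusted p of 0.0651.

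Nfix was at 103, 90.0 and 85.1 RPKM in wild types and 93.9, 70.4 and 82.2 in homozygotes. A10 was the lowest and A2 the highest of all 12 libraries, and A1 lay above wild types A9 and A16. The log2 fold change was -0.17 (SE 0.081, interval -0.34 to -0.0051), a fold of 0.886 (0.788 to 0.996), with an unadjusted p of 0.0442 and an adjusted p of 1 by edgeR. Without A10 the value was -0.07 and without A9 -0.08, with an unadjusted p of 0.409 and 0.403, and without A2 it was -0.12. Without A16 it was -0.28, with an unadjusted p of 0.000512.

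Nfib was at 65.0, 54.6 and 57.5 RPKM in wild types and 59.3, 51.7 and 53.8 in homozygotes, where A1 was above 2 of the wild types. Its log2 fold change was -0.10 (SE 0.069, interval -0.24 to 0.05), and -0.04 without A2 and -0.15 without A16. Nfic was at 11.996, 11.5 and 11.2 RPKM in wild types and 10.5, 11.1 and 10.4 in homozygotes, with the female A10 just below the lowest wild type in RPKM and above it in CPM. Its log2 fold change was -0.10 (SE 0.057, interval -0.22 to 0.02), and -0.06 without A2.

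In this comparison 0 of 4 members passed the adjusted threshold by edgeR, where 0% of all genes passed, and DESeq2 and limma-voom also called 0 genes. Unadjusted p was under 0.05 for Nfia and Nfix, 2 of 4, against 1.92% of all genes (307 by edgeR, 177 by DESeq2 and 311 by limma-voom). Values were lower in homozygotes for 4 of 4 members, against 49.4% of all genes. In p, Nfia ranked 72 and Nfix 265 among the 16002 genes. The groups were apart in CPM for 0 of 4 members, against 5.67% of all genes. Over all genes, the count at an unadjusted p under 0.05 was 1323 without A9, 1342 without A10, 501 without A2 and 187 without A1. Neighbouring embryo numbers, which no label ties to litters, give 3 sex-matched pairs (A1 and A2, A10 and A9, A18 and A16). The homozygote was lower in 3 of 3 pairs for each of the 4 members, against 9.6% of all genes, a count added after seeing the values. With these pairs as a block, Nfia was at -0.18 and Nfix at -0.17 (unadjusted p 0.00898 and 0.0329), and the adjusted p by edgeR was 1. In LC1, the knockout was higher in 3 of 3 such pairs for 1 of 4 members, Nfia, against 11.9% of all genes. The members' 4 values in RKI are not 4 independent observations, since the same 6 embryos gave them and A2 was the highest library for all 4 genes. In the authors' deposited table the log2 fold change, turned here to homozygous minus wild type, was -0.18 for Nfia, -0.10 for Nfib, -0.11 for Nfic and -0.17 for Nfix, and the adjusted p was 0.997 for each.

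**Figure D4:**
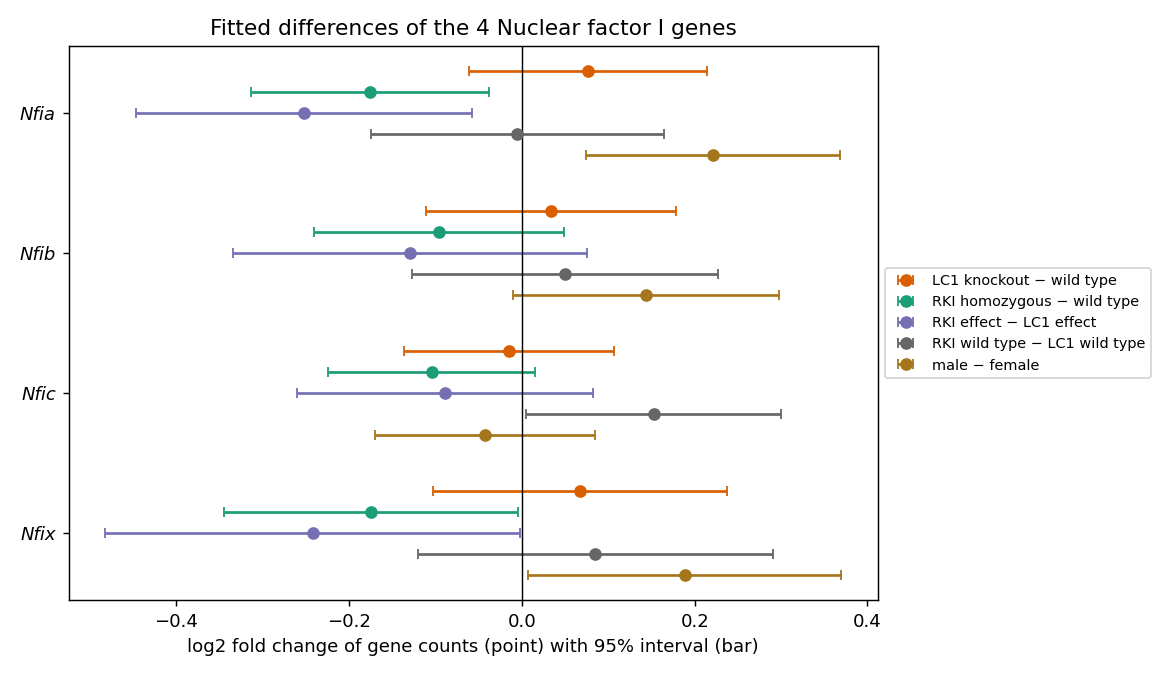
Fitted log2 fold changes (points) with 95% intervals (bars) for the 4 genes in 5 comparisons from 1 fit of 12 libraries. The intervals for LC1 cross 0 in all 4 genes, and in RKI those of Nfia and Nfix end at -0.04 and -0.0051 before adjustment over all genes.

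Several marker lists also leaned 1 way in the RKI comparison. Of the genes fixed as markers, 10 of 11 for pallial neurons had lower values in homozygotes (median log2 fold change -0.08), 8 of 8 for intermediate progenitors (-0.14), 10 of 10 for proliferation (-0.15) and 12 of 15 for radial glia (-0.10), against 49.4% of all genes and a median of 0.00. The summed level of pallial neuron genes was 2539 to 2688 CPM in wild types and 2342 to 2552 CPM in homozygotes. For intermediate progenitors it was 439 to 520 CPM and 410 to 465 CPM. For proliferation it was 1014 to 1550 CPM and 1063 to 1143 CPM, and for radial glia 3241 to 3889 CPM and 3248 to 3473 CPM. Wild type A16 gave the highest sum for proliferation and for radial glia. Wild types A2 and A9 had 1137 and 1014 CPM for proliferation, and 3511 and 3241 CPM for radial glia. None of these markers passed the adjusted threshold, none was at 0 in a library, and the ranges of both groups overlapped in each of these 4 lists. Of the midbrain and hindbrain markers 6 of 7 tested had higher values (median 0.68), with 14.1 to 28.8 CPM over the list in wild types and 25.0 to 38.4 CPM in homozygotes, and 8 of the 15 were too low to test. Higher values were also seen for 9 of 10 genes of subpallial neurons (0.14) and 8 of 8 of erythroid blood (0.14). Of 9 choroid plexus genes 7 had lower values (-0.17), and their sum was 798 to 900.5 CPM in wild types and 746 to 772 in homozygotes, without overlap. The part of these shifts in the members' values was not tested.

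The RKI effect minus the LC1 effect was tested within the same fit. It was -0.25 for Nfia (SE 0.093, interval -0.45 to -0.06, unadjusted p 0.0142) and -0.24 for Nfix (SE 0.114, interval -0.48 to -0.0021, unadjusted p 0.0483). For Nfib it was -0.13 and for Nfic -0.09. The adjusted p by edgeR was 1 for each, so a difference between the effects was not shown. At an unadjusted p under 0.05 the count was 2 of 4 members, against 2.42% of all genes.

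In the RKI embryos the 4 males lay above the 2 females for Nfia, at 285 CPM or more against 274 or less. For Nfib, Nfic and Nfix the sexes overlapped. How many of all genes were apart by sex was not computed. The female LC1 libraries 71, 7 and 73, at 318, 301 and 295 CPM, lay above males A1 and A18, at 285 and 286. Across the fit, males were higher than females by 0.22 on the log2 scale for Nfia (SE 0.070, unadjusted p 0.0056) and by 0.19 for Nfix (SE 0.086, unadjusted p 0.0427). The values were 0.14 for Nfib and -0.04 for Nfic, and the adjusted p by edgeR was 0.89 or more for each. The comparison was added after seeing the values, it rests on the RKI embryos because the LC1 embryos are all female, and 2 of 4 members had an unadjusted p under 0.05, against 5.18% of all genes. At the adjusted threshold it was 0 of 4, against 0.05% of all genes. Without A10 the value for Nfix was 0.04, and without A9 it was 0.34. For Nfia it was 0.17 without A9, with an unadjusted p of 0.0925.

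Between the wild types of the 2 experiments, the RKI embryos were higher for Nfic by 0.15 on the log2 scale (SE 0.070, unadjusted p 0.0432), with 11.5 ± 0.424 RPKM against 10.6 ± 0.398 (SD, n = 3 each). The value was 0.09 for Nfix, 0.05 for Nfib and -0.01 for Nfia, and the adjusted p by edgeR was 1 for each. Unadjusted, 1 of 4 members had a p under 0.05, against 3.89% of all genes, and 0 of 4 passed the adjusted threshold, against 0.0125%. The experiment and the mouse line cannot be told apart here. The value of Nfix was -0.12 without A9, and that of Nfia was 0.15 with no sex term in the fit.

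Ordered by group mean, Nfia ran from 28.6 ± 3.27 RPKM in RKI wild types through 27.1 ± 2.23 in LC1 knockouts and 25.7 ± 1.42 in LC1 wild types to 25.1 ± 1.54 in RKI homozygotes. Nfix ran from 92.8 ± 9.42 in RKI wild types through 83.7 ± 4.40 in LC1 knockouts and 82.2 ± 11.8 in RKI homozygotes to 80.0 ± 1.20 in LC1 wild types. Nfib ran from 59.1 ± 5.35 in RKI wild types through 54.9 ± 3.94 in RKI homozygotes and 54.3 ± 2.46 in LC1 knockouts to 53.1 ± 3.10 in LC1 wild types. For these 3 genes the ranges of neighbouring groups in the order overlapped. For Nfic the RKI wild types, at 11.2 to 11.996 RPKM, stood above every library of the next group, the RKI homozygotes, at 10.7 ± 0.409 RPKM and 10.4 to 11.1 RPKM. Wild type A16 and homozygote A10 were nearly level, and they changed places in CPM. LC1 wild types followed for Nfic at 10.6 ± 0.398 and LC1 knockouts at 10.4 ± 0.365, with overlap.

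At the level of transcripts, 0 of 28 tested member models passed the adjusted threshold by edgeR in either comparison, where 0% of 47772 transcripts passed. At an unadjusted p under 0.05, 1 of 28 was listed for LC1, against 2.97% of all transcripts, and 3 of 28 for RKI, against 2.45%. Nfia-004 was among them in both. It passed the filter only through the mutants where it was above 0, so these counts lend it no support. The short model Nfia-007 had a log2 fold change of -0.24 in RKI homozygotes (SE 0.073, unadjusted p 0.01), with 52.8, 46.7 and 54.1 RPKM in wild types A2, A9 and A16. Homozygotes A1, A10 and A18 had 44.0, 41.8 and 43.5 RPKM. All 3 homozygotes were below the lowest wild type for this model. Nfic-001 had -0.19 (SE 0.081, unadjusted p 0.0474), with 4.37, 3.79 and 3.81 RPKM in wild types and 3.41, 3.59 and 3.45 in homozygotes, again apart. The adjusted p of both by edgeR was 1. In CPM the groups were apart for 3 of 28 member models in RKI, against 7.66% of transcripts. The third, Nfix-003, had 5.43, 5.79 and 4.96 RPKM in wild types and 4.27, 3.81 and 4.70 in homozygotes. In LC1 they were apart for 4 of 28, Nfia-004, Nfib-001, Nfib-007 and Nfic-009, all higher in knockouts, against 7.8% of transcripts.

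Nfia-004, 1 of 2 models without the 66-base exon, was listed at 0 in all 6 wild types. The other, Nfia-002, was above 0 in all 12 libraries, at 2.35% to 20.5% of the estimated counts of Nfia, so the exon's absence is not particular to the mutants. The estimated counts of Nfia-004 were 36.4, 11.6 and 77.4 in LC1 knockouts 7, 22 and 71. They were 46.6 in homozygote A1, 0 in A10 and 29.9 in A18. Nfia-004 was thus above 0 in 5 of 6 mutants, at no more than 2.13% of the estimated counts of Nfia. It passed the low-count filter only through mutant libraries, so its p-values by edgeR cannot stand as support and are not given. Among all 47772 transcripts, 90, or 0.188%, were at 0 in the 3 LC1 wild types and above 0 in the 3 knockouts. In RKI these were 68, or 0.142%, and A10 keeps Nfia-004 out of them. Nfia-004 is named here because of this pattern, which was noticed in the data, and a listed 0 can be a failed estimate, so no fold is given.

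With 3 embryos against 3 an exact two-sided permutation test cannot go below p = 0.1, so the shares of the models are given as values. Among the named models, the LC1 shares of RPKM were fully apart for Nfia-004, which was named for this pattern, and for Nfic-004 and Nfic-009. They were also apart for some models with smaller shares, among them Nfib-001 and Nfib-007. How many of all transcripts were apart in their shares was not computed. Nfic-004 held 19.8% of the RPKM of Nfic in LC1 knockouts and 25.1% in wild types. In estimated counts it held 8.83% and 9.38%, and the groups overlapped. Nfic-009, an incomplete model of 575 bases, held 22.0% of the RPKM of Nfic in LC1 knockouts and 2.80% in wild types, but 3.56% and 0.387% of the estimated counts. It was at 0 in 4 of 12 libraries. Nfia-001 held 35.5% of the estimated counts of Nfia in LC1 knockouts and 51.8% in wild types, with knockout 22 lowest at 25.9% and wild type 6, at 36.2%, below knockouts 7 and 71.

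Across the 12 embryos the members varied by 5.27% (Nfic) to 9.95% (Nfix) of their mean RPKM, and 1 of 6 pairs varied together past the threshold. Nfib and Nfix had a Pearson r of 0.83 in log2 CPM (permutation p = 0.00135 with 100000 resamples, 0.0081 adjusted over 6 pairs) and a Spearman rho of 0.82 (adjusted permutation p = 0.0119). Within the 6 RKI libraries r was 0.91 (exact permutation p = 0.0181) and within the 6 LC1 libraries 0.54 (exact permutation p = 0.257). Without A2 and 73, the libraries farthest from the median of Nfib, r was 0.73. As deviations from the group means, r of Nfib and Nfix was 0.77. Among genes with a mean of at least 10 CPM, the 99th percentile of such r was 0.79 with Nfix and 0.74 with Nfib. The pair thus lay below this percentile for Nfix and above it for Nfib. How many of all gene pairs vary together this closely was not computed, so closeness particular to the family was not shown.

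The other 5 pairs had r between 0.09 and 0.54 and adjusted permutation p-values from 0.199 to 0.776, with rho between -0.10 and 0.41 and adjusted permutation p-values from 0.579 to 0.921. Several of them differed between the experiments. Nfia and Nfic had r = -0.76 within the LC1 libraries (exact permutation p = 0.0903) and 0.35 within the RKI libraries (exact permutation p = 0.488). Without A2 and A16 their r was -0.70, against 0.09 with all libraries. Nfia and Nfib had r = -0.01 within LC1 and 0.81 within RKI (exact permutation p = 0.05), and 0.15 without A2 and A16. For Nfia and Nfix r was -0.29 and 0.68, with 0.22 without A2 and A16. For Nfib and Nfic it was -0.58 and 0.40, with -0.30 without A2 and 73. For Nfic and Nfix it was 0.08 and 0.37, with -0.36 without A2 and A9. All pairs share library A2 as their highest point, and no difference between the experiments was tested.

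**Figure D5:**
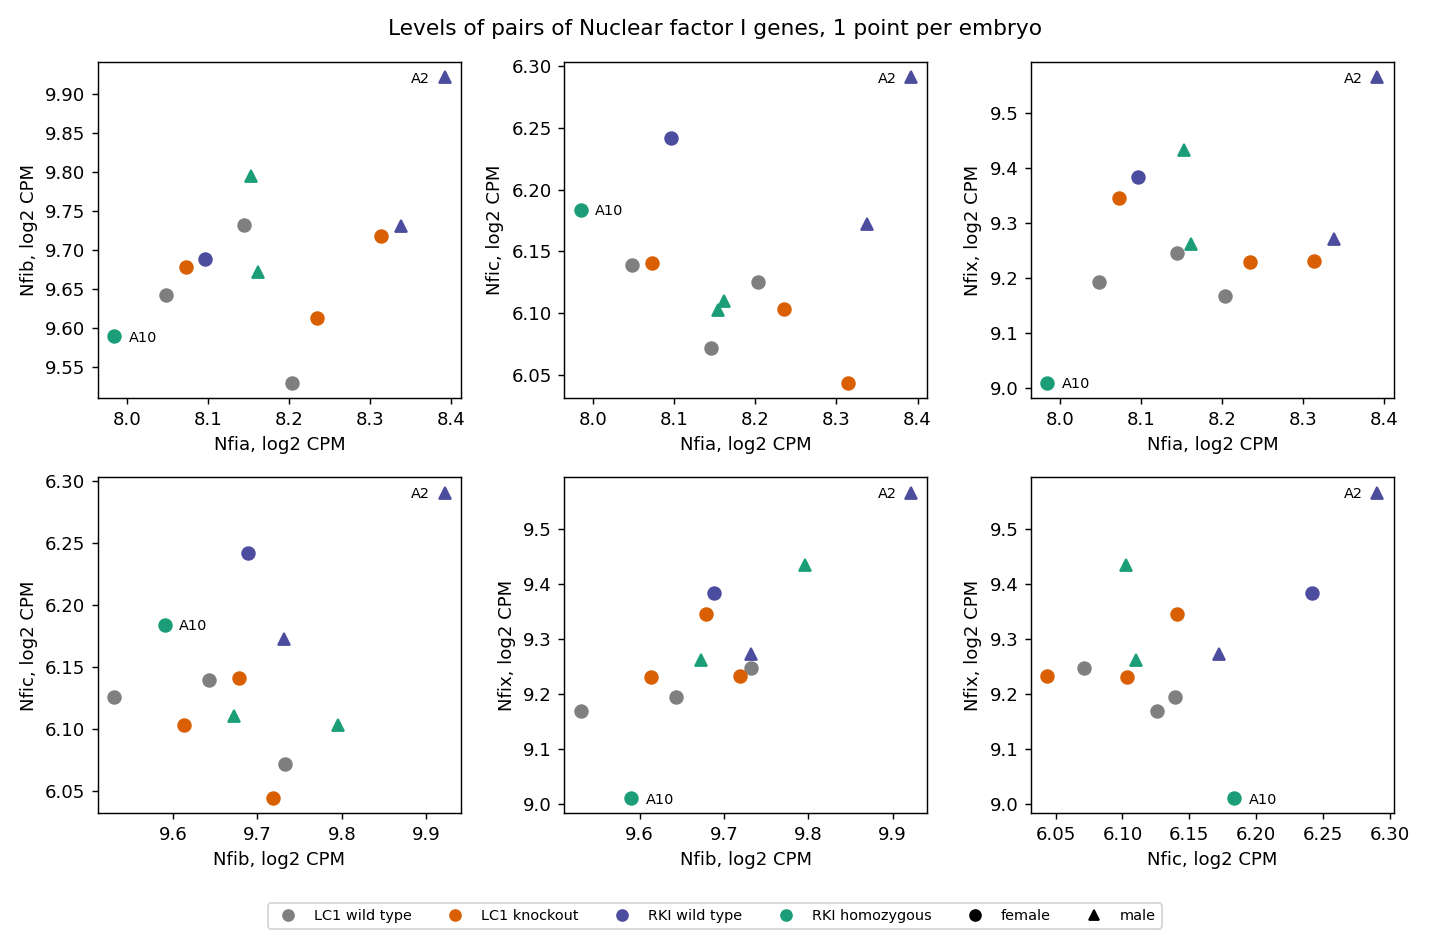
Log2 CPM (prior count 2) of each pair of members, 1 point per embryo, coloured by group, with circles for females and triangles for males. Wild type A2 lies at the upper right of each panel, homozygote A10 is lowest for Nfia and Nfix, and Nfib and Nfix line up most closely (r = 0.83).

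The genes whose levels most resembled each member were sought by the Pearson r of log2 CPM over the 12 libraries, as deviations from the 4 group means, among 10315 genes with a mean of at least 10 CPM. For Nfia they were Hsp90b1, a chaperone of the endoplasmic reticulum (r = 0.90), Pard3b, a cell polarity protein (0.89), and Kdm5a, a histone demethylase (0.89). For Nfib they were Uri1, a prefoldin-like protein (0.94), Taf13, a subunit of the general factor TFIID (0.91), and Dnajc21, a protein with a J domain (0.90). For Nfic they were Vps37b, a subunit of the ESCRT-I complex (0.96), Eif4enif1, a transporter of the cap-binding factor eIF4E (0.92), and Adam23, a membrane protein of the ADAM family (0.91). For Nfix they were Tmed10, a cargo receptor of the early secretory pathway (0.93), Epm2aip1, a protein that binds laforin (0.91), and Slc5a3, a myo-inositol transporter (0.91). The 12 genes are different from one another, and the 4 members were left out of the search beforehand. The 99th percentile of r over all genes searched was 0.74 for Nfia and Nfib, 0.70 for Nfic and 0.79 for Nfix. Without taking out the group means, r of these 12 genes with their member ran from 0.18 to 0.81. These are descriptions over libraries that share embryos, depth and dissection.

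Genes known to act with or under Nuclear factor I were read from 4 lists, none of whose tested genes passed the adjusted threshold by edgeR in either comparison. SOX9 induces NFIA at the onset of gliogenesis, and both act on a first set of glial genes. The list read for this step is not one of joint targets alone. It holds Sox9 itself, and Sox9 and Hes1 are also among the genes reported as repressed by Nuclear factor I. Of its 9 genes, 4 had higher and 5 lower values in LC1 knockouts (median log2 fold change -0.04), and 2 higher and 7 lower in RKI homozygotes (-0.07). Their summed level did not overlap in LC1, at 874 to 920.3 CPM in wild types and 839.9 to 860.3 in knockouts. Fabp7 alone made up most of the difference between the mean sums of these groups. In RKI the summed level was 828 to 896 CPM and 837 to 872 CPM. Fabp7, the fatty acid-binding protein of radial glia, was at 291 ± 30.9 CPM in LC1 wild types and 255 ± 9.03 in knockouts (SD, n = 3 each), with a log2 fold change of -0.19 (SE 0.069, unadjusted p 0.0141). Id3, an inhibitor of bHLH factors, had -0.12 there. Hes1, a Notch effector that keeps progenitors undifferentiated and is reported as repressed by Nuclear factor I, had 22.7 ± 3.56 CPM in wild types of RKI and 18.5 ± 2.82 CPM in homozygotes, with -0.30 (SE 0.133, unadjusted p 0.0383). Hes5, another Notch effector, had -0.15.

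Of 14 astrocyte genes 12 were tested, 6 with higher and 6 with lower values in LC1 knockouts (median 0.00) and 5 with higher and 7 with lower values in RKI homozygotes (-0.01). The list summed to 1185 to 1216 CPM in LC1 wild types and 1148 to 1176 in knockouts, without overlap. In RKI it summed to 1144 to 1205 CPM in wild types and 1153 to 1194 in homozygotes. For this list and that of the glial step, how often sums of other genes are apart was not computed. Gfap and S100b, late astrocyte genes, were too low to test, and Gfap reached at most 0.466 CPM. Sparcl1, a secreted matrix protein, had -0.16 in LC1 (SE 0.073, unadjusted p 0.0392), and Gjb6, a gap junction protein, -0.26 (SE 0.165). In RKI, Mlc1, a membrane protein of astrocyte endfeet, had -0.22 (SE 0.096, unadjusted p 0.0341) and Aldoc, a glycolytic enzyme, -0.30 (SE 0.129, unadjusted p 0.0387).

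Of 5 genes reported as repressed by Nuclear factor I, 4 were tested. Values were higher for 3 of 4 in LC1 knockouts (median 0.04) and for 0 of 4 in RKI homozygotes (-0.09). Ezh2, the methyltransferase of Polycomb repressive complex 2, had 0.06 in LC1, and Sox9 had -0.10 in RKI. Of 4 cerebellar granule neuron genes reported as targets, Gabra6, a GABA receptor subunit of mature granule neurons, was at 0 in 8 of 12 libraries and not tested. Cntn2, an axonal adhesion protein, had 0.15 in LC1 and -0.10 in RKI, and Cdh2, a cadherin, 0.10 and -0.06. Over all genes tested the median was 0.00 in both comparisons.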

How the data were processed

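Values were read from tables that the authors deposited: whole-number counts per gene, RPKM per gene and per transcript, estimated counts per transcript, and the authors' own comparisons, deposited with p-values and log2 fold changes. Per the submitters' processing notes, the tools include featureCounts 1.4.5, STAR 2.0.4b and Subread, with no roles named. Build, annotation, strand setting and transcript estimator were not given in the sources used here. All 574 repeated rows of the gene table were dropped.

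Gene counts of all 12 libraries were tested in 1 fit of edgeR 4.0.16 (quasi-likelihood, TMM scaling, filterByExpr, robust dispersion) in R 4.3.3, with 4 group means and a sex term, leaving 7 residual degrees of freedom, and Benjamini-Hochberg adjustment at 0.05 over 16002 genes. The common biological coefficient of variation was 6.94%. Estimated counts were rounded and 47772 transcripts tested likewise. CPM use the TMM-scaled totals. The labels treat each library as 1 embryo, and p-values measure the spread between embryos. Scripts were tested on simulated data. Alternatives were DESeq2 1.42.0, limma-voom (limma 3.58.1), other scalings and filters, a block and left-out libraries. Named transcripts hold at least 10% of their gene's transcript RPKM; Nfia-001 and Nfia-004 were added after seeing the data. For each of the 4 lists tied to the family, the 2 genes with the smallest p in LC1 and in RKI are named, and for likeness the 3 genes with the highest r. The members and lists were chosen with earlier results of these data known. The remaining marker lists served as checks of tissue and cell types, and those not printed had no gene past the threshold.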

Additional observations from a re-analysis of the deposited data

How the results depend on the processing

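No member gene passed the adjusted threshold under any of 356 alternative values, and no named transcript under any of 405. All alternatives for Nfia, Nfib, Nfic and Nfix in RKI kept their direction. The labels give no pairing, since groups share no embryo numbers and no litter is named. A block over neighbouring embryo numbers changed no call of a member gene and gave 3 genes past the threshold in RKI and turned Nfic-002 (0.49) and Nfib-009 (0.011) in LC1. With no low-count filter 4 genes passed in LC1, and 26 genes and 2 transcripts in RKI. With no sex term 1 transcript passed in RKI, and the line value of Nfia was 0.15.

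The log2 ratio of Nfix over Nfib was -0.69 from the transcript sum and -0.22 from basic coding models, where other lengths divide the reads. As shares of estimated counts the models held 50.01% (Nfib-202), 77.4% (Nfic-001), 91.2% (Nfix-001), 9.53% (Nfic-004), 28.3% (Nfia-007), 2.46% (Nfib-009), 43.8% (Nfia-001) and 0.437% (Nfia-004). Within the LC1 libraries r was -0.012 for Nfia and Nfib, -0.76 for Nfia and Nfic, -0.29 for Nfia and Nfix, -0.58 for Nfib and Nfic, and 0.54 for Nfib and Nfix. As deviations from group means it was -0.46 for Nfia and Nfic and -0.14 for Nfib and Nfic. Without the libraries farthest from the median it was -0.70 for Nfia and Nfic, -0.30 for Nfib and Nfic and -0.36 for Nfic and Nfix.

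Leaving out 1 library at a time gave 0 to 2 genes past the threshold in RKI (1 without A1, 2 without A9 or A10), 0 to 1 transcripts in LC1 (1 without knockout 22) and 0 to 7 transcripts in RKI (7 without A10). Log2 fold changes ran from -0.017 to 0.082 for Nfib and -0.039 to 0.013 for Nfic in LC1. Between the lines they ran from -0.044 to 0.058 for Nfia, -0.0014 to 0.11 for Nfib and -0.12 to 0.19 for Nfix. For transcripts in LC1 the ranges were -1.01 to 0.15 (Nfic-002), -0.25 to 0.057 (Nfib-202), -0.070 to 0.035 (Nfic-001), -0.21 to 0.11 (Nfib-003), -0.042 to 0.079 (Nfix-001), -0.30 to 0.014 (Nfic-004) and -0.25 to 0.28 (Nfib-009). In RKI they were -2.54 to 0.53 (Nfic-002), -0.42 to 0.027 (Nfib-003), -0.21 to 0.0071 (Nfix-001), -0.38 to 2.88 (Nfic-009) and -0.17 to 0.13 (Nfib-009). Apart from the lengths, the cause of these shifts was not tested. With 3 embryos a group, the exact test cannot go below p = 0.1, and shares of rarely listed models such as Nfic-009 rest on few reads.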
